A study of Danio rerio with 6 samples.

Results

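The genes described here are 10 genes of endothelial junctions, Tie receptors and the endothelial cell surface, namely cdh5, tie1, tek, egfl7, she, esama, clec14a, s1pr1, aqp1a.1 and rasip1. They were chosen by symbol alone, as the rows whose gene symbol matched exactly, out of 29361 symbols in the count table, and all 10 passed the filter on low counts that left 19381 genes. RNA sequencing was done on sorted zebrafish cells at 48 hours after fertilisation. There were 3 libraries of the mafba uq4bh mutant and 3 of wildtype fish, every one carrying the kdrl eGFP transgene, in which a promoter of a Vegf receptor gene drives a green fluorescent protein in endothelial cells and in some blood progenitors. The labels do not say whether the mutants were homozygous or how many embryos were pooled, and nothing ties a library to a separate pool, so a p-value here speaks only of how far these libraries scatter, a scatter that may be technical. The source field calls the cells purified endothelial cells, while the protocol names brains and a pdgfr beta reporter, so the tissue and the gate are not settled. The RNA was amplified before sequencing. The comparison asks which of these genes differ in endothelial cells that carry a mutation in mafba, a large Maf transcription factor gene.

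Endothelial cells line vessels and hold to one another at junctions. VE-cadherin, encoded by cdh5, joins neighbouring cells at adherens junctions and is tied to actin by catenins, while members of the immunoglobulin family such as Esam sit at tight junctions. The Tie receptor Tek responds to angiopoietins and the receptor S1pr1 to sphingosine-1-phosphate, and both systems are known for keeping vessels quiet and sealed. Rasip1 is an effector of the small GTPase Rap1 that is known in mouse for opening the vessel lumen.

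Reads on genes ranged from 44888870 to 52923490 in the mutant libraries and from 43859736 to 49145191 in the wild-type libraries. The 10 genes took 24023, 21261 and 18731 of these reads in mutant 1, 2 and 3, against 25792, 16139 and 18803 in wild-type 1, 2 and 3. Levels are given as CPM, which are read counts relative to the library size after scaling by TMM factors. The summed level of the 10 genes was 511, 505 and 318 CPM in the mutant libraries and 608, 370 and 362 CPM in the wild-type libraries. The highest and the second lowest sums were thus both of wild-type libraries, and the genotypes overlapped. In bulk libraries such as these, fewer cells of a type and less RNA per cell cannot be told apart. Markers of other cells were also present at high levels: the summed level of 11 neutrophil genes was 7902 to 18161 CPM in mutant and 7626 to 12135 CPM in wild-type libraries, and that of 12 epidermis genes 8972 to 13277 CPM and 8075 to 10991 CPM. Of the 12 marker lists for other cell types, 0 had summed levels that separated the genotypes.

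**Figure D1:**
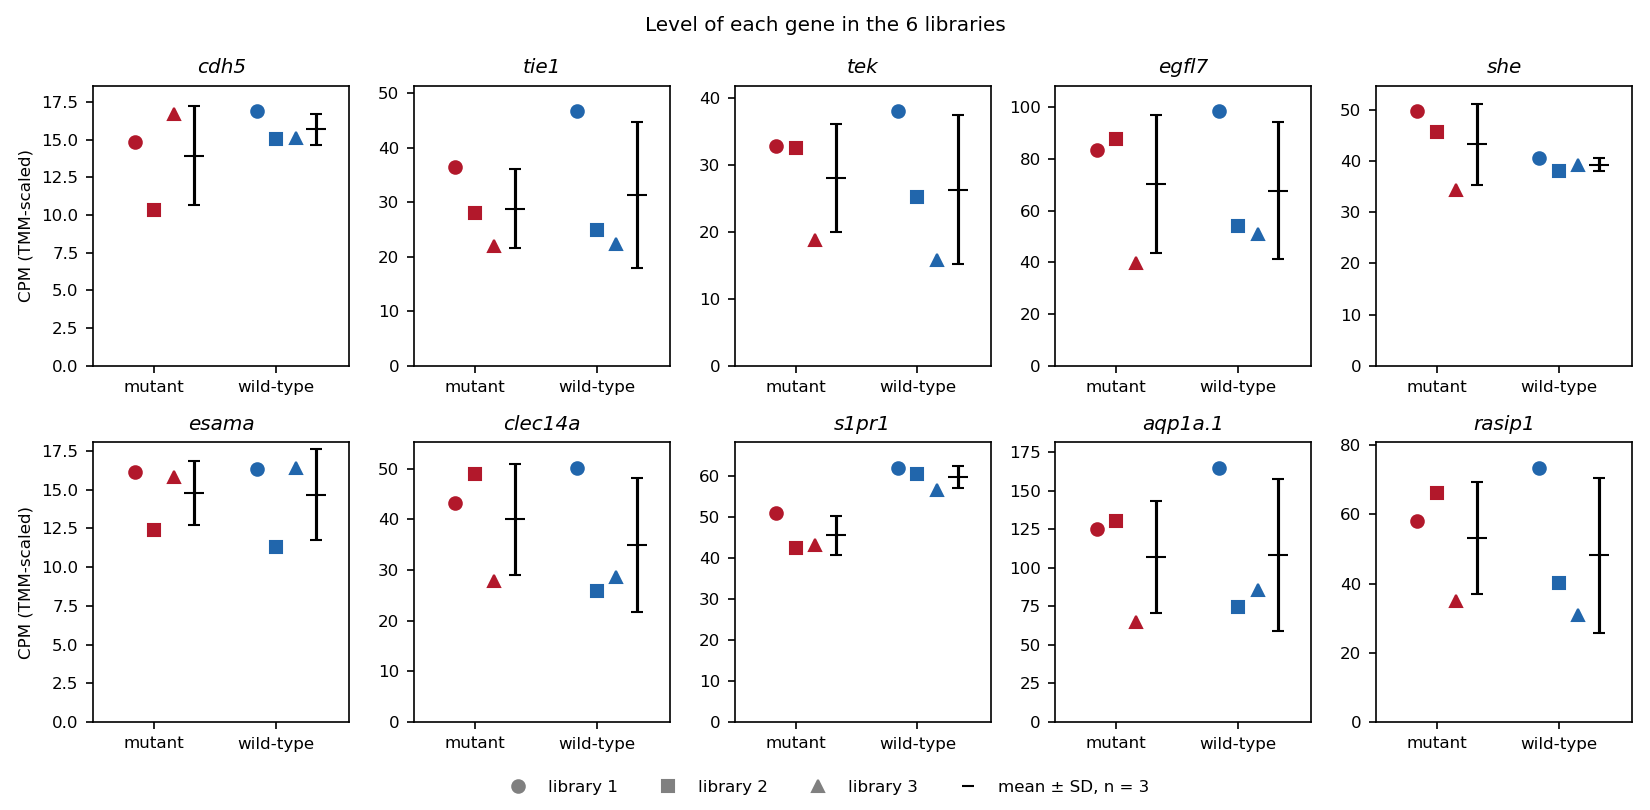
Level of each of the 10 genes in CPM (vertical axes, each from 0) in the 3 mutant and 3 wild-type libraries, with symbols for the library number and bars for mean ± SD (n = 3). The genotypes overlap for every gene except s1pr1. Its mutant libraries sit between 42.4 and 51.0 CPM, below the wild-type libraries at 56.8 to 62.1 CPM. Over all genes tested, 6.74% had genotypes that did not overlap.

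Of the 10 genes, s1pr1 alone had genotypes that did not overlap, near the share of 6.74% over all genes tested. None of the 10 passed the test. With p-values adjusted over all genes by the Benjamini-Hochberg method, edgeR's quasi-likelihood test called 0 of 19381 genes, which is 0% of those tested, and 305 genes (1.57%) had an unadjusted p under 0.05. Among the 10 genes, 1 had an unadjusted p under 0.05, with the lowest adjusted p being 1.00. DESeq2 and limma-voom also called 0 of the 10, each with 1 at an unadjusted p under 0.05. In the fit, 6 of the 10 were higher and 4 lower in mutant libraries, with a median log2 difference of 0.03, beside 9547 higher and 9834 lower and a median of -0.00470 over all genes tested. The 10 log2 differences ran from -0.39 for s1pr1 to 0.19 for clec14a.

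**Figure D2:**
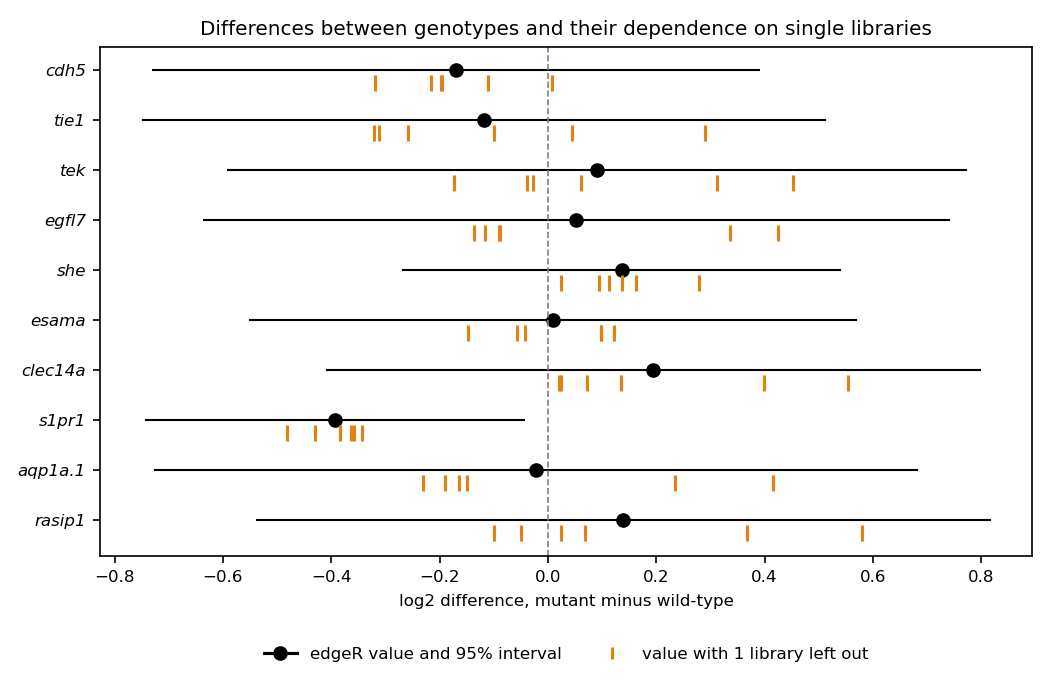
Log2 difference between mutant and wild-type libraries for each of the 10 genes (points, horizontal axis) with its 95% interval (lines), and the same value with each of the 6 libraries left out in turn (orange ticks). For s1pr1 the left-out values stay between -0.48 and -0.34, while for tie1 they run from -0.32 to 0.29 and for egfl7 from -0.14 to 0.42.

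The junction genes cdh5 and esama were not separated by genotype. The cadherin gene cdh5 stood at 14.8, 10.3 and 16.7 CPM in mutant 1, 2 and 3 and at 16.9, 15.0 and 15.1 CPM in wild-type 1, 2 and 3. Mutant 2 lay apart below the other 5 libraries, with 434 reads where the others had 657 to 981, and the wild-type libraries were close together. The spread of cdh5 was 23.5% of the mean in mutant libraries and 6.59% in wild-type libraries, where counting error alone gives 3.19% to 4.80%. In the fit cdh5 had a log2 difference of -0.17 ± 0.26 (SE), and its 95% interval ran from 0.603 to 1.31 times the wild-type level, and it was 0.007449 without mutant 2. For esama, an adhesion molecule of the immunoglobulin family, levels were 16.1, 12.4 and 15.8 CPM in mutant libraries and 16.3, 11.3 and 16.4 CPM in wild-type libraries. Library 2 was the low one in either genotype, although the labels tie the library numbers to nothing shared. The esama means of 14.8 ± 2.07 CPM in mutant and 14.7 ± 2.94 CPM in wild-type libraries (SD, n = 3 each) gave a log2 difference of 0.01 ± 0.26 (SE), and the 95% interval of esama allowed 0.683 to 1.48 times the wild-type level. Without wild-type 2, mutant 1 or mutant 3 the value of esama was negative. Its paralogue esamb had 24 reads in all, every one in mutant 1.

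The third gene with a role at junctions, rasip1, behaved differently from cdh5 and esama across libraries. It stood at 58.1, 66.1 and 34.9 CPM in mutant libraries and at 73.5, 40.1 and 30.9 CPM in wild-type libraries. Mutant 3 and wild-type 2 and 3 were low, and wild-type 1 was the highest of all. The range from the lowest to the highest library of one genotype was 1.89-fold in mutant and 2.38-fold in wild-type libraries, far outside the counting error of 1.79% to 2.5%. The log2 difference of 0.14 ± 0.31 (SE) turned negative without wild-type 3 or mutant 2.

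The genes for the 2 Tie receptors shared their 3 highest libraries, as 7 of the 10 genes did, and were not separated by genotype. The receptor gene tie1 stood at 36.4, 28.1 and 21.9 CPM in mutant libraries and at 46.7, 24.8 and 22.3 CPM in wild-type libraries. The angiopoietin receptor gene tek stood at 32.8, 32.5 and 18.7 CPM in mutant libraries and at 38.0, 25.2 and 15.8 CPM in wild-type libraries. For either receptor wild-type 1 was the highest library, with mutant 1 and 2 next. The means of tie1 were 28.8 ± 7.24 CPM in mutant and 31.3 ± 13.4 CPM in wild-type libraries (SD, n = 3 each), a log2 difference of -0.12 ± 0.29 (SE). The sign of tie1 turned without wild-type 1 (0.29) or mutant 3 (0.04). Those of tek were 28.0 ± 8.04 CPM and 26.3 ± 11.2 CPM in mutant and wild-type libraries, a log2 difference of 0.09 ± 0.31 (SE), which was negative without wild-type 3, mutant 1 or mutant 2. The 95% intervals allowed 0.595 to 1.43 times the wild-type level for tie1 and 0.664 to 1.71 times for tek.

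Reads of tie1 per read of tek, a ratio within each library that no scaling touches, were 1.11, 0.864 and 1.17 in mutant libraries and 1.23, 0.987 and 1.41 in wild-type libraries. The ratio was lowest in library 2 of either genotype, and the genotypes overlapped (means 1.05 ± 0.162 and 1.21 ± 0.213 in mutant and wild-type libraries, SD, n = 3 each). Genes for the ligands were not separated by genotype either. The agonist gene angpt1 stood at 12.5 ± 3.89 CPM in mutant and 16.5 ± 2.75 CPM in wild-type libraries, and angpt2a, named like angpt2b after its values were seen, at 3.62 ± 1.40 and 3.27 ± 1.64 CPM (SD, n = 3 each). The gene angpt2b was near the limit of detection, at 0.617 ± 0.277 and 0.462 ± 0.801 CPM.

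The receptor gene s1pr1 was lower in each mutant library than in any wild-type library, with levels of 51.0, 42.4 and 43.3 CPM in mutant 1, 2 and 3 and 62.1, 60.6 and 56.8 CPM in wild-type 1, 2 and 3. Thus 1 of the 10 genes had mutant libraries wholly below the wild-type libraries and 0 had them wholly above, where among all genes tested these shares were 3.36% and 3.38%, or 6.74% together. The s1pr1 means were 45.6 ± 4.72 CPM in mutant and 59.8 ± 2.75 CPM in wild-type libraries (SD, n = 3 each). In the fit s1pr1 had a log2 difference of -0.39 ± 0.16 (SE), whose 95% interval of -0.74 to -0.04 corresponds to 0.598 to 0.970 times the wild-type level. The unadjusted p was 0.0304 and the adjusted p 1.00 (edgeR quasi-likelihood), so s1pr1 did not pass, and 151 genes had a smaller p. Relative to cdh5 the genotypes overlapped, with 3.44, 4.12 and 2.60 reads of s1pr1 per cdh5 read in mutant libraries and 3.68, 4.03 and 3.76 in wild-type libraries. The highest ratio was that of mutant 2, which had the lowest level of s1pr1 and also the lowest of cdh5 (10.3 CPM). The lowest ratio was that of mutant 3, which had the highest level of cdh5 among mutant libraries (16.7 CPM). The other mutant ratios, 3.44 and 2.60, lay below all wild-type ratios, so the overlap came from mutant 2 alone. The part of cdh5 in these ratios was not tested. Sums of muscle and neural markers overlapped between the genotypes. The summed level of 14 muscle genes was 3270, 4498 and 2101 CPM in mutant and 4243, 6735 and 2213 CPM in wild-type libraries. That of 12 neural genes was 457, 517 and 621 CPM and 535, 727 and 607 CPM, with gap43 at 0 in all libraries. Gene by gene, 13 of 14 muscle genes (median log2 difference -0.35), 10 of 11 neural genes tested (median -0.33) and 7 of 8 thrombocyte genes (median -0.33) were fitted lower in mutant libraries, with 0 past the threshold. Of the 12 marker lists these leaned most to lower values. Other lists leaned the other way, with 9 of 11 neutrophil genes (median 0.12) and 7 of 10 ionocyte genes (median 0.12) fitted higher. The kidney, gut and liver list had the highest median of the 12 lists (0.14), with 6 of 11 genes tested higher and 5 lower. The muscle and neural sums were highest in wild-type 2, and the neutrophil sum in mutant 2 (18161 CPM). The gene lyz gave 54.6% of the neutrophil sum. Genes of a list share the same libraries, so these counts are not of independent genes. The 8 thrombocyte genes summed to 831, 521 and 918 CPM in mutant and 1061, 747 and 1157 CPM in wild-type libraries, with thbs1b giving 69.7% of it. The part of any of these cell types in the s1pr1 difference was not tested.

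Of the 15 other genes of the sphingosine-1-phosphate pathway that were tested, 7 were fitted higher and 8 lower in mutant libraries, 0 passed, and the median log2 difference was -0.05. Of the 15, 1 had genotypes that did not overlap, near the 6.74% over all genes. This was the receptor gene s1pr5a, at 20.9, 17.5 and 17.0 CPM in mutant libraries against 24.4, 24.0 and 21.8 CPM in wild-type libraries, and its log2 difference of -0.34 ± 0.21 (SE) did not pass. The G protein gene gna13b had a log2 difference of -0.41 ± 0.26 (SE). The transporter gene spns2, which encodes the exporter of the lipid in zebrafish and was named after its values were seen, stood at 15.7 ± 2.95 CPM in mutant and 12.96 ± 3.70 CPM in wild-type libraries (SD, n = 3 each).

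The water channel gene aqp1a.1 had the widest fold between its highest and lowest library of the 10. It stood at 125, 131 and 65.2 CPM in mutant libraries and at 165, 74.8 and 85.9 CPM in wild-type libraries. Wild-type 1 and mutant 3 held the extremes, which lay 2.53-fold apart, so each genotype spanned most of the range. The aqp1a.1 means of 107 ± 36.3 CPM in mutant and 109 ± 49.3 CPM in wild-type libraries (SD, n = 3 each) gave a log2 difference of -0.02 ± 0.32 (SE), with a 95% interval of 0.605 to 1.605 times the wild-type level. This value was 0.42 without wild-type 1 and 0.24 without mutant 3. Aquaporin 1 is also known as a protein of red cells in mammals. The summed level of 12 erythrocyte genes was 1613, 4232 and 2683 CPM in mutant and 2447, 3310 and 3260 CPM in wild-type libraries, with hbae3 giving 51.3% of it and no gene of the list at 0 in all libraries. The part of red cells in the level of aqp1a.1 was not tested. The neighbouring paralogue aqp1a.2, named after its values were seen, was near the limit of detection at 0.462 ± 0.404 and 0.707 ± 0.257 CPM in mutant and wild-type libraries, and how reads of the 2 genes were divided is not known.

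The gene egfl7 encodes a secreted protein of the endothelium, and the gene is known as host of the microRNA miR-126. It stood at 83.4, 87.6 and 39.7 CPM in mutant libraries and at 98.3, 53.9 and 50.9 CPM in wild-type libraries. The lectin-like surface receptor gene clec14a stood at 43.2, 48.9 and 27.8 CPM in mutant libraries and at 50.2, 25.9 and 28.7 CPM in wild-type libraries. Both had mutant 1, mutant 2 and wild-type 1 well above the other libraries, and for clec14a the gap between these and the rest was 0.619 of the whole log2 range. The log2 difference was 0.05 ± 0.31 (SE) for egfl7 and 0.19 ± 0.28 (SE) for clec14a, and the 95% intervals allowed 0.644 to 1.67 and 0.753 to 1.74 times the wild-type level. The clec14a value was 0.55 without wild-type 1 and 0.02 without wild-type 2, while that of egfl7 turned negative without wild-type 2, wild-type 3, mutant 1 or mutant 2. The multimerin gene mmrn2a, whose human counterpart encodes a ligand of CLEC14A and which was named after its values were seen, stood at 11.6 ± 0.700 CPM in mutant and 12.1 ± 0.864 CPM in wild-type libraries (SD, n = 3 each).

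The adaptor gene she, whose product carries an SH2 domain and which is expressed in zebrafish vessels, was the steadiest of the 10 in wild-type libraries. It stood at 49.8, 45.8 and 34.3 CPM in mutant libraries and at 40.7, 38.1 and 39.4 CPM in wild-type libraries. The wild-type values lay inside the range of the mutant values, with a spread of 3.34% of the mean in wild-type and 18.5% in mutant libraries, where counting error gives 2.07% to 2.45%. The log2 difference of she was 0.14 ± 0.19 (SE), with an interval of 0.831 to 1.45 times the wild-type level and no change of sign when any library was left out. In the RefSeq table (GRCz12tu) she overlaps tuft1a, clec14a overlaps sec23a and rasip1 overlaps cox6b2. These are overlaps of whole gene spans, not of exons, in a build other than that of the counts. No strand setting is stated, so whether reads of such partners were mixed is not known.

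**Figure D3:**
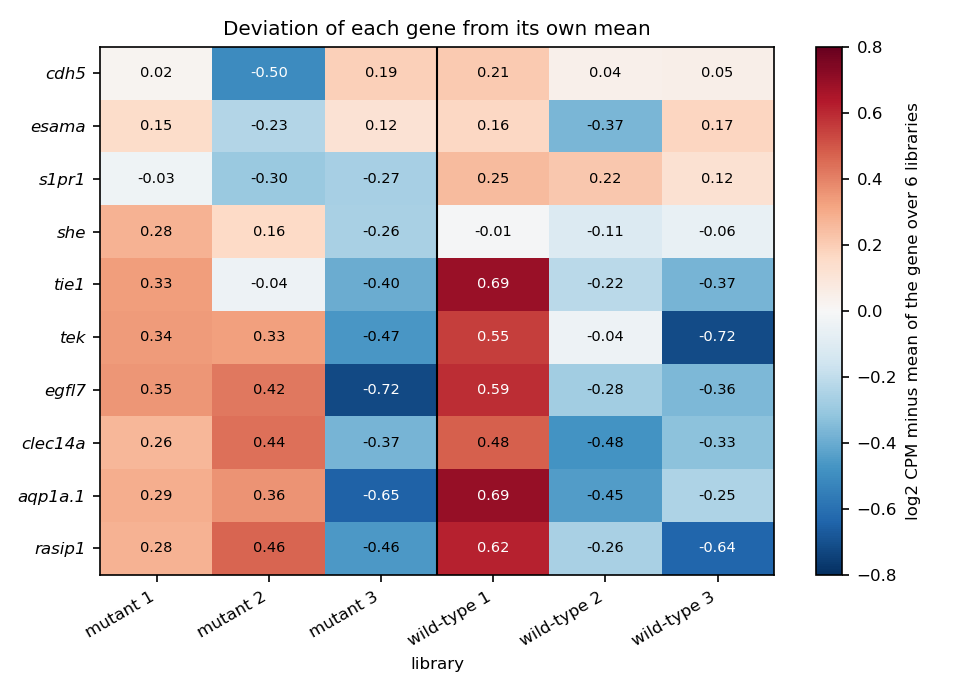
Log2 CPM of each gene minus its own mean over the 6 libraries (colour and printed value), with mutant libraries left of the line and wild-type libraries right of it. From tie1 down, mutant 3, wild-type 2 and wild-type 3 are at or below 0 for every gene and wild-type 1 is at 0.48 or more, whereas cdh5 is lowest in mutant 2 at -0.50 and s1pr1 is lower in all mutant libraries.

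Across libraries, 7 of the 10 genes shared their 3 highest libraries, which were mutant 1, mutant 2 and wild-type 1. These genes were tie1, tek, egfl7, she, clec14a, aqp1a.1 and rasip1, and with plain library totals in place of TMM factors there were 6 of them. The same 3 libraries were highest for 9.51% of all genes tested and for 12.9% of the 11208 genes with a mean of at least 5 CPM. They were also the 3 with the lowest TMM factors, at 0.956 and 0.939 in mutant 1 and 2 and 0.968 in wild-type 1, where mutant 3 had 1.11 and wild-type 2 and 3 had 0.979 and 1.06. Among the summed levels of cell type markers, 2 of 12 lists had these libraries highest, namely the ionocyte list (1314, 1373 and 1305 CPM in mutant and 1732, 929 and 1277 CPM in wild-type libraries) and the mural and mesenchyme list (1096, 1034 and 817 CPM and 941, 855 and 800 CPM), and none of their 10 and 12 genes was at 0 in all libraries. The gene atp1a1a.4 gave 84.8% of the ionocyte sum and col1a1a 48.1% of the mural and mesenchyme sum. Other genes of the lists did not all share this order. For example, atp6v1aa (88.2 CPM) and myh11a (108 CPM) were highest in mutant 3. The part of the TMM factors and of these cell types in the shared order was not tested.

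Pairwise correlation of log2 CPM over the 6 libraries was computed for 45 pairs, with exact permutation tests (two-sided, all orderings). After Benjamini-Hochberg adjustment over the 45, 0 pairs passed, and 12 had an unadjusted p under 0.05. With 6 libraries the exact test cannot give a p under 0.00139. A pair could therefore not pass on its own, however high its r. For esama and clec14a the libraries fell into separate sets, so 17 pairs with either gene are given no value. The genes egfl7, rasip1 and aqp1a.1 had their largest gap between the same sets of libraries as clec14a. It was 0.482, 0.427 and 0.404 of the log2 range, under the cutoff of 0.5, which was set after the values were seen. The part of this split in the r of their pairs was not tested. Of the 28 other pairs, 9 had an unadjusted p under 0.05 (exact permutation test on Pearson r). The 10 pairs among tie1, tek, egfl7, aqp1a.1 and rasip1, a group named after the values were seen, had Pearson r from 0.834 to 0.976. The 15 pairs of these genes with cdh5, she or s1pr1 had r from -0.367 to 0.785 (median 0.158). For the 3 pairs among cdh5, she and s1pr1, r ran from -0.534 to 0.533. All values of one library share its preparation, its depth and its scaling factor, and the part of these in the correlations was not tested. The highest were egfl7 with aqp1a.1 (r = 0.976, Spearman rho = 0.943, exact permutation p = 0.00972 and 0.0167, adjusted p = 0.139 and 0.125) and tek with rasip1 (r = 0.970, rho = 0.943, exact permutation p = 0.00278 and 0.0167, adjusted p = 0.125 for both). Without the 2 libraries farthest from the median of the first gene, r was 0.959 and 0.969. For egfl7 with aqp1a.1 the libraries left out, mutant 3 and wild-type 1, lay on opposite sides of the gap. Mutant 1 and 2 still stood above wild-type 2 and 3, so this check cannot tell whether r rests on that gap. With genotype means subtracted, the 10 pairs ran from 0.843 to 0.977.

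The receptors tie1 and tek had r = 0.870 and rho = 0.943 (exact permutation p = 0.0236 and 0.0167, adjusted p = 0.139 and 0.125), and r was 0.956 without the 2 farthest libraries. Such a value was not particular to the receptor pair, as r was 0.890 for tie1 with aqp1a.1 and 0.970 for tek with rasip1. By contrast cdh5 with tie1 had r = 0.120 and rho = -0.0857 (exact permutation p = 0.875 and 0.919, adjusted p = 0.960 and 1.00), which became -0.592 without the 2 farthest libraries and 0.0930 with genotype means subtracted. The pair of cdh5 and she had r = -0.534 and rho = -0.543 (exact permutation p = 0.303 and 0.297, adjusted p = 0.568 and 0.582), with -0.756 and -0.459 on the same checks. Whether the correlation of one pair differs from that of another was not tested.

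**Figure D4:**
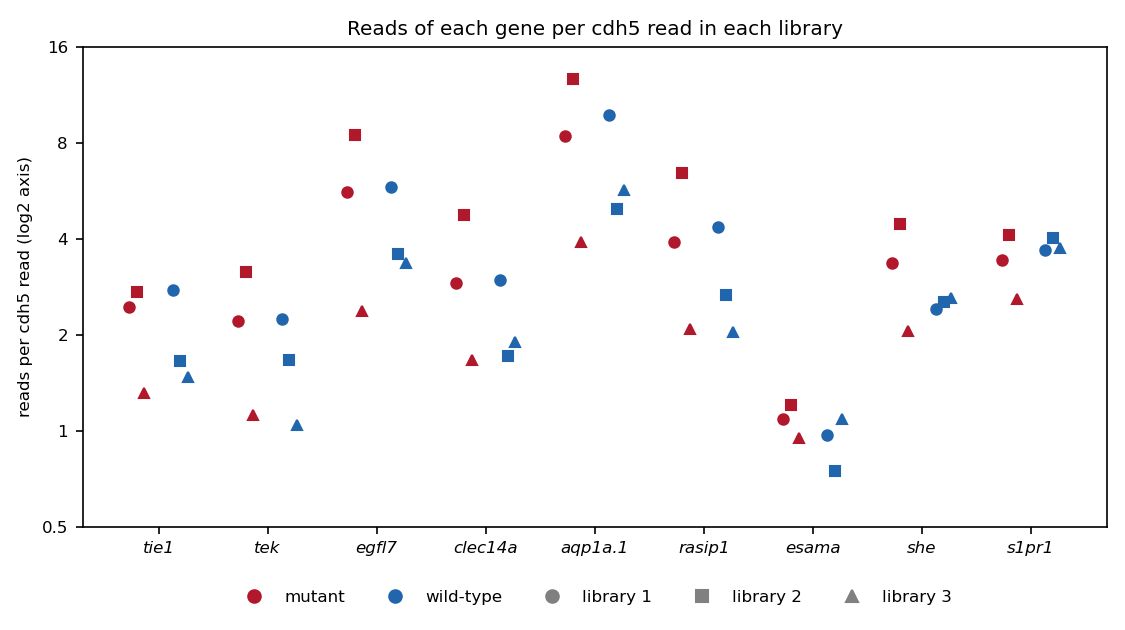
Reads of each other gene per read of cdh5 in the same library (vertical log2 axis), for mutant (red) and wild-type (blue) libraries with symbols for the library number. Mutant 2 is highest and mutant 3 lowest among mutant libraries for every gene, with aqp1a.1 at 12.7 and 3.91 reads per cdh5 read, and the genotypes overlap for all 9 genes. All ratios share cdh5, which among mutant libraries is itself lowest in mutant 2 (10.3 CPM) and highest in mutant 3 (16.7 CPM).

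The genes did not keep one ratio to cdh5 across libraries, and each ratio also carries the scatter of cdh5 itself. Reads of egfl7 per cdh5 read were 5.63, 8.50 and 2.38 in mutant libraries and 5.83, 3.58 and 3.37 in wild-type libraries. For esama the ratio was 1.09, 1.20 and 0.948 in mutant libraries and 0.968, 0.750 and 1.09 in wild-type libraries. The ratio of egfl7 thus spanned 2.38 to 8.50 over the 6 libraries, and that of esama 0.750 to 1.20.

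Of the genes that are not among the 10, those with a pattern most like the mean standardised level of the 10 were ranked by Pearson r over the 6 libraries among 11198 genes with a mean of at least 5 CPM. The first was vsg1 (r = 0.994), named plvapb in the RefSeq table, an endothelial gene whose product forms diaphragms of fenestrae and caveolae. It was followed by adkb, hat1, mcm7, cpn1, mcamb, notchl, fblim1 and slc25a20 and by a gene with no descriptive name, down to r = 0.978 at rank 10. Of the 11198 genes, 187 had r above 0.9, and with 6 libraries such values are a description. The list of other endothelial markers also holds vsg1, as plvapb. Of its 25 further genes ranked, the receptor gene kdrl, whose promoter drives the transgene, had the highest r (0.973, rank 20). The genes dll4 and stab1 followed at 0.927 and 0.912. The transcription factor genes sox18, gata2a, fli1a, etv2 and fli1b had r of 0.838, 0.752, 0.602, 0.496 and 0.484. For erg, sox7 and lmo2 r was 0.125, 0.118 and 0.000137. Surface genes were spread too, with flt1 at 0.836 and efnb2a at 0.260. Values were negative for tal1 (-0.338), klf2b (-0.545), mafba (-0.610) and klf2a (-0.732). These genes were named after their values were seen, except tal1 and lmo2. Among the 10 themselves, tie1 was nearest to their mean (r = 0.982) and cdh5 farthest (r = 0.00602). Each of the 10 is part of that mean, which tends to raise its r, so these values do not compare with those of other genes.

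In the lists of genes that work with the 10, 0 passed in either direction. Of 13 cadherin and catenin partners tested, 7 were higher and 6 lower (median log2 difference 0.03), led by pkp4, a plakophilin gene, at 0.47 ± 0.25 (SE) and the catenin gene ctnna1 at 0.27 ± 0.18. The epithelial cadherin gene cdh1, which is also on the epidermis list and was named after its values were seen, stood at 826 ± 170 CPM in mutant and 778 ± 120 CPM in wild-type libraries (SD, n = 3 each). Of 15 tight junction and adhesion genes, 5 were higher and 10 lower (median -0.08), among them the scaffold gene tjp2a at 0.46 ± 0.20 (SE; unadjusted p = 0.0374 and adjusted p = 1.00, edgeR quasi-likelihood) and jam2b, at under 4 CPM in every library, at -1.24 ± 0.94. The claudin gene cldn5b, named after its values were seen, stood at 93.6 ± 12.6 and 100 ± 7.40 CPM in mutant and wild-type libraries. Of 9 Tie ligands and regulators, 3 were higher and 6 lower (median -0.18), among them the adaptor gene dok2 at -0.57 ± 0.34 (SE) and angpt1 at -0.40 ± 0.29.

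The list of Rap1, Rasip1 and CCM genes had 11 of 17 tested members higher and 6 lower (median 0.09), with the exchange factor genes rapgef1b at 0.42 ± 0.24 (SE) and rapgef2 at -0.17 ± 0.20. The genes arhgap29a and arhgap29b, whose mouse counterpart encodes a partner of Rasip1 and which were named after their values were seen, stood at 49.9 ± 6.48 and 32.6 ± 0.852 CPM in mutant and 52.6 ± 1.67 and 30.7 ± 1.22 CPM in wild-type libraries (SD, n = 3 each). Of the 17 genes, 1 had genotypes that did not overlap, beside 6.74% over all genes tested. This was arhgap29b, at 33.4, 31.7 and 32.7 CPM in mutant libraries against 31.4, 31.4 and 29.3 CPM in wild-type libraries. Of 11 other aquaporins tested 5 were higher and 6 lower (median -0.10), with aqp3a at 0.28 ± 0.20 (SE) and aqp7 at -0.41 ± 0.43. Of 5 relatives of clec14a, egfl7 and she, 3 were higher and 2 lower (median 0.09), with egfl6 at 0.37 ± 0.32 and mmrn2b at -0.35 ± 0.35. Of 28 other endothelial markers 6 were higher and 22 lower (median -0.12), where the 2 with the smallest p were the haematoendothelial genes tal1 at -0.44 ± 0.21 (SE) and lmo2 at -0.43 ± 0.21. Of the 28, 1 had genotypes that did not overlap, beside the same 6.74%. This was erg, at 7.12, 7.48 and 6.05 CPM in mutant libraries against 5.28, 5.15 and 5.80 CPM in wild-type libraries. The summed level of these 28 genes was 1727, 1567 and 1347 CPM in mutant and 1936, 1643 and 1524 CPM in wild-type libraries. By this sum the genotypes overlapped.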

How the data were processed

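The authors deposited raw read counts by gene symbol, as one file for each library and as one table that holds the same counts. Per the submitters' processing notes, bcl2fastq, STAR and HTSeq were used, with the builds danRer7 and Zv9. Versions, annotation and strandedness were not given in the sources used here. The 5 summary rows held 22.1% to 28.1% of entries and were left out. Counts were fitted in R 4.3.3 with edgeR 4.0.16 (filterByExpr, TMM, robust quasi-likelihood, no block) over all genes, with Benjamini-Hochberg adjustment and a threshold of 0.05. DESeq2 1.42.0 and limma 3.58.1 (limma-voom) were alternatives, as were other scalings and filters, a fit without robust estimation, a replicate block and leaving out each library. The edgeR fit and the ranking by likeness were also run on simulated data. The outcome is not given here, so the power behind the 0 called is not stated. The common dispersion of the edgeR fit corresponded to a coefficient of variation of 0.578 between libraries. Correlations used log2 CPM with a prior count of 2 (Python 3.11.15).

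The 10 genes, the lists and the tests were chosen with earlier results of these data known. Named genes are the 10, the 2 of each partner list with the smallest p, and the 10 most alike in pattern. The rule that calls libraries separate (largest gap over 0.5 of the log2 range, with at least 2 libraries on either side) was set after the values were seen. Of 282 list entries, 245 matched a symbol, 12 matched a synonym in a RefSeq gene table (GRCz12tu) and 25 had no match. Its build is not that of the counts, so it served for names and for neighbouring or overlapping genes, not for coordinates of the counts. Transcript lengths and sequences were not used here, so levels are compared between libraries, not between genes. Counting error and intervals do not cover amplification.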

Additional observations from a re-analysis of the deposited data

How the results depend on the processing

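The number of changed genes was 0 among the 10 genes and 0 among all genes under each scaling, filter and tool and with each library left out (lowest adjusted p 0.168 over all genes in the edgeR fits without a block, 0.0829 in DESeq2). Of 150 alternative values for the 10 genes, 133 kept the sign of the main value and 17, in 7 genes, did not; each of the 17 came from leaving out 1 library, and the cause was not tested. With 1 library left out the log2 difference ranged from -0.32 to 0.007449 for cdh5, -0.32 to 0.29 for tie1, -0.17 to 0.45 for tek, -0.14 to 0.42 for egfl7, -0.15 to 0.12 for esama, -0.23 to 0.42 for aqp1a.1 and -0.10 to 0.58 for rasip1, while s1pr1 (-0.48 to -0.34), she (0.02 to 0.28) and clec14a (0.02 to 0.55) kept their sign. The unadjusted p of s1pr1 was 0.0791 without wild-type 1, 0.0534 without wild-type 2, 0.0955 without mutant 2 and 0.0723 without mutant 3. The median over the 10 genes ranged from -0.14 without wild-type 3 to 0.35 without wild-type 1. All 240 alternative values of the 16 other named genes kept their sign, and leaving out 1 library moved several by over 1.5 times, as with jam2b (-2.41 to -0.79), aqp7 (-0.69 to -0.12), mmrn2b (-0.59 to -0.08), rapgef2 (-0.40 to -0.06) and egfl6 (0.09 to 0.71). The number of correlated pairs was 0 under each alternative (lowest adjusted p 0.0625, exact permutation test). With 6 libraries no pair could pass on its own, and with 1 left out the smallest possible p is higher still. The 0 therefore says little on how the correlations depend on the processing. With 1 library left out, r ranged from -0.324 (without wild-type 1) to 0.336 for cdh5 with tie1, and the other 4 pairs given a value kept their sign. The order of genes by level per length was not run.

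A fit with replicate block, in which the library number is a term, called 0 of the 10 genes and 0 of all genes (523 at an unadjusted p under 0.05, lowest adjusted p 0.0535), with s1pr1 at -0.40 and the median of the 10 at 0.03. Deviations of same-numbered libraries correlated at 0.0598, 0.0211 and 0.140 over all tested genes, and for mutant 2 and wild-type 1 another number gave the higher value. Over the 10 genes alone the values were 0.604, -0.303 and 0.697, while mutant 2 with wild-type 1, which differ in number, had a higher value of 0.763. The labels give nothing but the number as shared.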
